A study of Populus trichocarpa with 28 samples.

Results

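The 9 genes described here carry the first reactions of phenylpropanoid synthesis in black cottonwood, Populus trichocarpa. They were chosen by gene ID, as known genes of these enzymes, out of 41335 genes counted, with earlier results of these data known. The PAL genes are PAL1 (Potri.006G126800), PAL2 (Potri.008G038200), PAL3 (Potri.016G091100), PAL4 (Potri.010G224100) and PAL5 (Potri.010G224200). The C4H genes are C4H1 (Potri.013G157900) and C4H2 (Potri.019G130700), and the 4CL genes are 4CL3 (Potri.001G036900) and 4CL5 (Potri.003G188500). The files pair no ID with a name, so the names are those given with the list of IDs.

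Phenylalanine ammonia-lyase (PAL) removes the amino group of phenylalanine to make cinnamic acid, which commits carbon from primary metabolism to phenylpropanoids. Cinnamate 4-hydroxylase (C4H), a cytochrome P450 of the endoplasmic reticulum, adds a hydroxyl group to give p-coumaric acid. 4-Coumarate:CoA ligase (4CL) joins that acid to coenzyme A, and p-coumaroyl-CoA then feeds lignin in the walls of wood cells as well as flavonoids, condensed tannins and other phenolics, which are abundant in poplar leaves.

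All plants grew from rooted cuttings of stems in a greenhouse (20 to 35 C), with full watering for 2 months. Soil water was then kept at field capacity for controls, or lowered to 40% of it for a drought of 24 hours (short) or 25 days (long). Short drought was studied by total RNA, depleted of ribosomal RNA, from apex and mature leaves. Long drought was studied by mRNA from apex, leaves of 2 ages (young and mature) and root, with a second set of root libraries made from total RNA. Each of these 7 sets had 2 control and 2 drought libraries, 28 in all in 14 groups. The labels name no genotype, and whether the 2 libraries of a group stem from different plants is not stated there, so p-values may measure technical spread alone. Libraries are named below by the number in their titles. Those are 19 and 49 (control) and 35 and 69 (drought) in the short experiment, and 63 and 70 (control) and 64 and 68 (drought) in the long one.

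Sense counts, reads on the coding strand of a gene, totalled 20249489 to 67062224 per library. Antisense totals were 382726 to 2686433 and intron totals 251926 to 5949444. Levels are CPM values, counts scaled to a common library size over the 28 libraries. They are not divided by gene length, so a level is compared between groups and never between genes. Changes are log2 fold changes with their standard errors (SE), and a gene is called at an adjusted p under 0.05 over all genes tested (edgeR's quasi-likelihood test, Benjamini-Hochberg adjustment). All samples are bulk tissue, so fewer cells of a type and less RNA per cell cannot be told apart. The PAL genes, the C4H genes and the 4CL genes belong to 1 family each. How alike the sequences within a family are was not measured here, so a split of reads between its genes in the authors' counting is uncertain. As a check, reads were summed for the pairs PAL1 and PAL3, PAL4 and PAL5, C4H1 and C4H2, and 4CL3 and 4CL5. PAL2 was summed with no other gene. The leaf markers followed the tissue labels. The 4 IDs listed as leaf markers summed to 13.7 to 24.0 CPM in root and to at least 1256 CPM in every other group. The 2 IDs listed as meristem markers summed to at most 0.0568 CPM in leaves and to at least 5.24 CPM in apex and root. Their sum was not highest in apex. In well-watered long mRNA libraries it was 91.85 to 92.69 CPM in root and 19.11 to 20.45 in apex. In root against apex 1 of the 2 was higher and 1 lower (log2 differences of 2.61 and -3.465).

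In well-watered plants of the long experiment, PAL1 was highest in young leaves and PAL3 lowest in mature leaves, while PAL4, PAL5, 4CL3 and 4CL5 were highest in root. PAL1 stood at 3024 and 2831 CPM in young leaves, 1173 and 1321 in apex, 547 and 388 in mature leaves and 618 and 377 in root mRNA. Young leaves were above mature leaves by 2.635 ± 0.33 on the log2 scale (adjusted p = 0.000744), and root was below young leaves by a log2 difference of -2.56 ± 0.32 (adjusted p = 0.000155). PAL1 levels of root and mature leaves overlapped.

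PAL3 was at 77.8 and 62.7 CPM in mature leaves against 647 and 523 in young leaves, 457 and 285 in apex and 427 and 259.8 in root. The log2 differences from mature leaves were 3.05 ± 0.33 for young leaves, 2.39 ± 0.33 for apex and 2.28 ± 0.32 for root (adjusted p = 0.000426, 0.000291 and 0.000306). Young leaves lay above apex and root, which overlapped, but no test between these 3 tissues called PAL3. PAL2 passed the test between none of the long mRNA tissues and lay between 157 and 273 CPM in their 8 control libraries.

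Both 4CL genes and the pair PAL4 and PAL5, whose IDs follow each other, shared the root maximum. 4CL5 was at 22.9 and 18.9 CPM in root, 8.471 and 7.996 in mature leaves, 5.18 and 3.39 in apex and 4.24 and 3.22 in young leaves. Root was above young leaves by 2.48 ± 0.25 and above apex by 2.28 ± 0.24 (adjusted p = 3.29e-05 and 5.16e-05), and apex and young leaves overlapped. 4CL3 was at 115 and 118 CPM in root and at 30.4 and 29.6 in young leaves, a log2 difference of 1.95 ± 0.26 (adjusted p = 0.000224). PAL4 was at 88.0 and 102 CPM in root and between 31.9 and 50.7 in the other 3 tissues. PAL5 was at 14.6 and 16.6 CPM in root and between 3.22 and 6.74 elsewhere. For each of these 4 genes root passed the test against all 3 other tissues. The 4CL3 difference from mature leaves, 0.73 ± 0.25, was lost without root control library 63 or 70 (highest adjusted p = 0.0907).

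The C4H genes had another order. C4H1 was at 194 and 262 CPM in root, 196 and 103 in apex, 125.3 and 66.1 in mature leaves and 31.4 and 27.1 in young leaves. Young leaves were lowest, with apex above them by 2.36 ± 0.39 and root by 2.96 ± 0.40 on the log2 scale (adjusted p = 0.00242 and 0.000336). C4H2 reached 710.5 and 303 CPM in apex against 188.5 and 103.5 in young leaves, a difference of 1.80 ± 0.45 (adjusted p = 0.0148), which was lost without apex library 63 or young leaf library 70 (highest adjusted p = 0.09).

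Counted over the 9 genes, 3 differed between apex and young leaves, where 37.6% of all genes tested did, and 5 between young and mature leaves (25.1% of all genes). The other long mRNA counts were 4 for apex against mature leaves (54.7%), 5 for root against apex (60.8%), 6 for root against young leaves (59.2%) and 6 for root against mature leaves (59.4%). In the total RNA of the short experiment, 4 of the 9 were higher in apex than in mature leaves (55.3% of all genes differed). These were C4H1 by 2.06 ± 0.20, C4H2 by 0.81 ± 0.15, PAL4 by 1.33 ± 0.15 and PAL5 by 1.34 ± 0.36 on the log2 scale. These counts were near or below the share of all genes, apart from the 5 of 9 between young and mature leaves. Of those 5 only the PAL1 and PAL3 calls held whichever library was left out. The calls of C4H1, 4CL3 and 4CL5 were each lost without young leaf control 70.

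**Figure D1:**
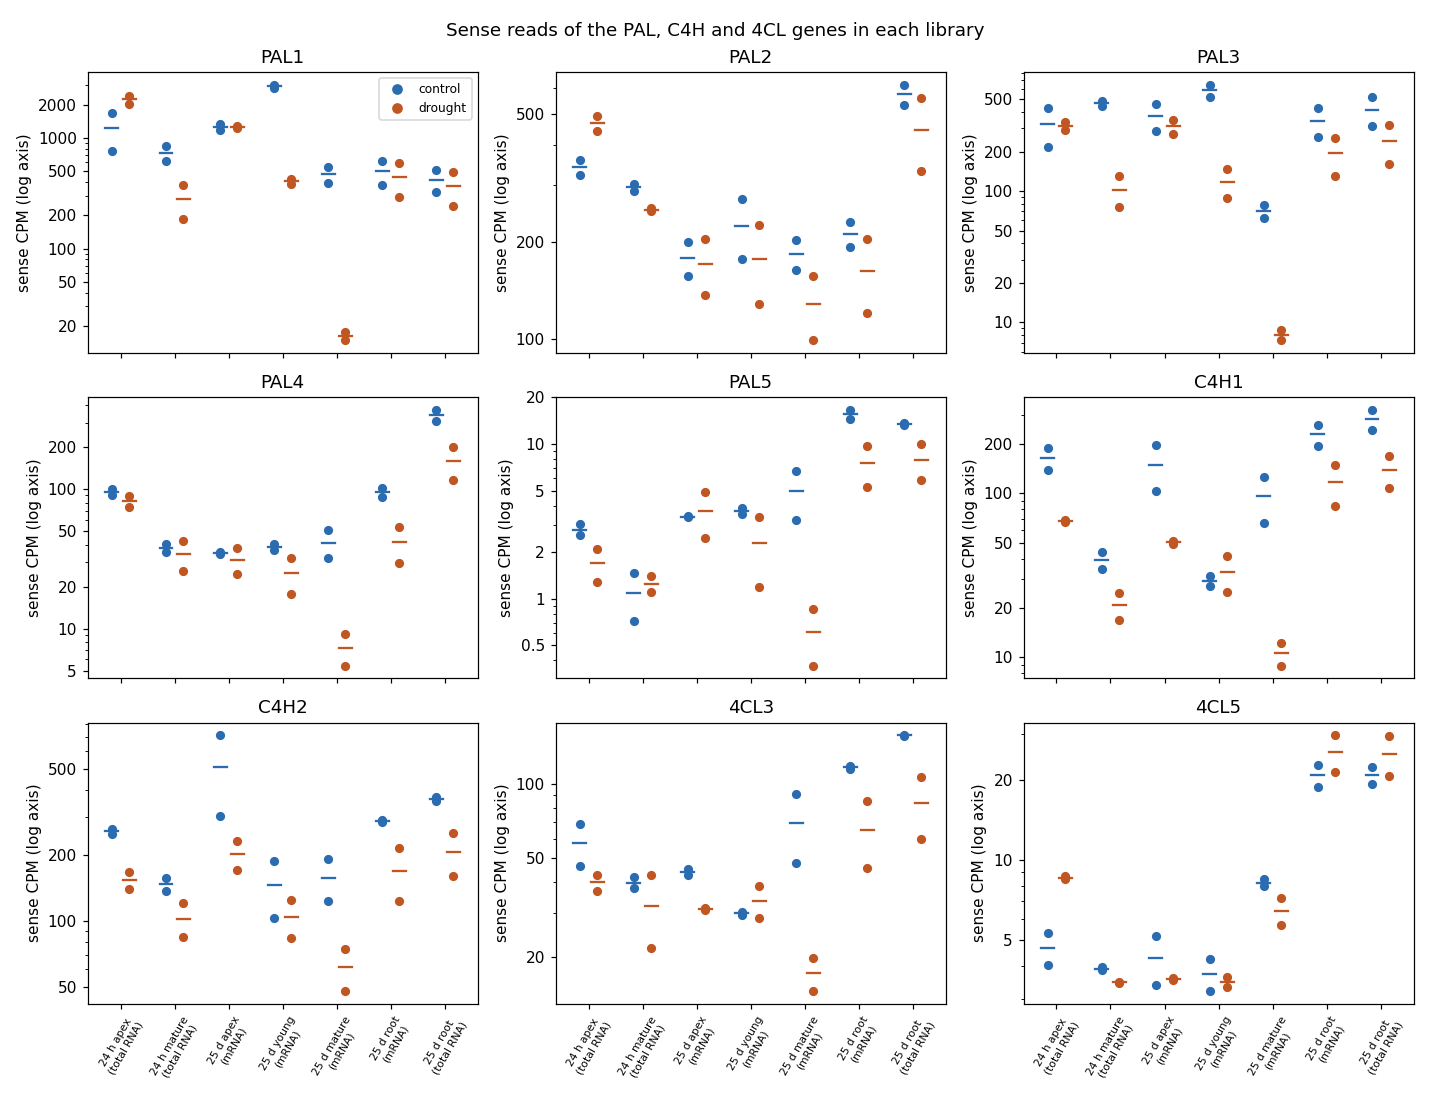
Sense level of each gene in CPM (log axis) in the 28 libraries, by term, tissue and library type; points are libraries (blue control, orange drought) and short lines are group means. PAL1 and PAL3 drop to 14.9 to 17.7 and 7.33 to 8.84 CPM in mature leaves after 25 days, and 4CL5 is highest in root.

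In mature leaves after 25 days of drought 6 of the 9 genes fell, where 4.07% of all genes fell and 1.29% rose. Without drought library 68 the count was 3, where 2.11% of all genes were called. The fallen genes covered all 3 enzymes: PAL1, PAL3, PAL4, PAL5, C4H1 and 4CL3. The median of the 9 log2 changes was -2.48, against 0.01 over all genes tested. The 9 genes together took 1197 and 691 CPM (without TMM scaling) in the control libraries and 262 and 178.5 in the drought libraries.

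PAL1 was at 547 and 388 CPM in control and at 14.9 and 17.7 in drought mature leaves. It fell 28.1-fold, a log2 change of -4.81 ± 0.27 (adjusted p = 0.00253). PAL3 went from 77.8 and 62.7 CPM to 7.33 and 8.84, an 8.485-fold fall (-3.085 ± 0.19, adjusted p = 0.0038). The drought libraries of both genes were the lowest among all 28 libraries.

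PAL4 was at 50.7 and 31.9 CPM in control and at 9.15 and 5.43 in drought (-2.48 ± 0.37, adjusted p = 0.0287). PAL5 was low throughout and went from 6.74 and 3.22 CPM to 0.852 and 0.37 (-3.04 ± 0.57, adjusted p = 0.0439). PAL2 was at 203 and 164 CPM in control and 157 and 99.2 in drought. Its log2 change of -0.48 ± 0.28 did not pass (adjusted p = 0.343), and its 95% interval ran from -1.16 to 0.20.

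In the second step, C4H1 fell 8.85-fold, from 125.3 and 66.1 CPM to 12.3 and 8.92 (-3.15 ± 0.38, adjusted p = 0.0201). C4H2 was at 192 and 123 CPM against 74.7 and 47.8 (-1.33 ± 0.33, adjusted p = 0.0794). 4CL3 was at 90.4 and 47.9 CPM in control and 19.9 and 14.6 in drought, a change of -1.97 ± 0.36 (adjusted p = 0.0459). 4CL5 was at 8.471 and 7.996 CPM against 5.68 and 7.24 and did not pass (-0.32 ± 0.21, adjusted p = 0.403).

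The calls of PAL1 and PAL3 held whichever of the 4 libraries was left out, with PAL1 between -5.04 and -4.54 and PAL3 between -3.24 and -2.92. The other 4 calls were each lost at least once: PAL4 without control 63 (-2.10, adjusted p = 0.0552), PAL5 without control 63 or drought 68 (-2.40 and -2.49, highest adjusted p = 0.104), C4H1 without drought 68 (-2.915, adjusted p = 0.0504), and 4CL3 without drought 64 or 68 (-2.23 and -1.75, highest adjusted p = 0.154). Of the 5 IDs listed as xylem markers, 4 fell too, and their summed level went from 214 to 433 CPM in control to 34.0 to 46.9 in drought. None of them was at 0, and their part in the fall of the 9 genes was not tested. Of 14 IDs listed as later lignin steps, 6 fell, and the median of the 14 log2 changes was -0.90. Among these 6, Potri.001G304800 was lowest (-2.95 ± 0.41) and Potri.006G033300 highest (-1.19 ± 0.22). The files name none of the listed IDs, so the lists rest on knowledge from outside them.

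The makeup of PAL reads changed with the fall. These shares are of read counts and are not corrected for length, so only the same gene is compared between libraries. PAL1 and PAL3 together made up 70.59% and 69.35% of all PAL reads in control mature leaves and 11.7% and 20.2% in drought. The share of PAL2 went from 22.9% and 25.2% to 83.0% and 75.4%, the highest shares of PAL2 among the 28 libraries. PAL reads numbered 17353 and 11285 in the controls and 3331 and 3198 in the drought libraries.

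**Figure D2:**
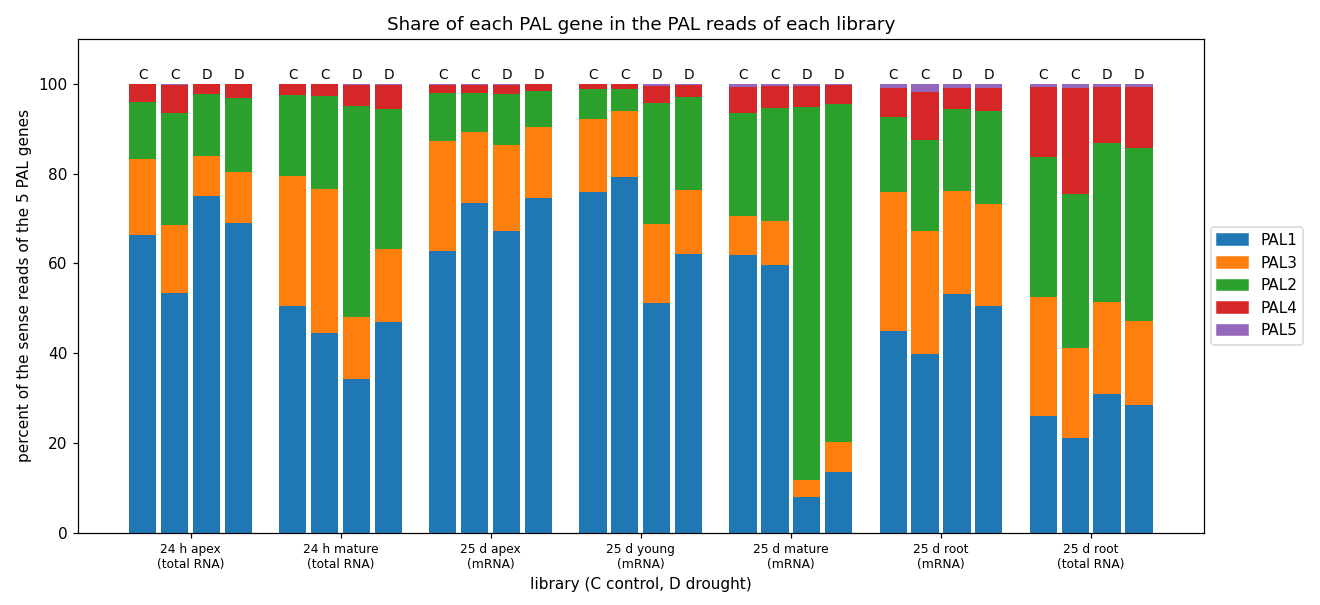
Percent of the sense reads of the 5 PAL genes that belong to each gene, 1 bar per library, C for control and D for drought. In mature leaves after 25 days PAL2 (green) takes 83.0% and 75.4% of PAL reads in drought against 22.9% and 25.2% in control.

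In young leaves after 25 days PAL1 and PAL3 fell, the 2 genes called among the 9, where 6.82% of all genes fell and 4.62% rose. PAL1 went from 3024 and 2831 CPM, its highest levels of all libraries, to 427 and 386. That is a 7.24-fold fall (-2.86 ± 0.30, adjusted p = 0.00271). PAL3 went from 647 and 523 CPM to 147 and 88.3, a 5.01-fold fall (-2.32 ± 0.30, adjusted p = 0.00454).

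Neither call was lost when a library was left out. The other 7 genes had log2 changes between -0.72 and 0.17, and C4H1 was at 31.4 and 27.1 CPM against 41.5 and 24.9. PAL1 and PAL3 held 92.05% and 93.9% of PAL reads in control and 68.65% and 76.3% in drought. The 5 xylem markers did not go down here. They summed to 69.8 and 72.1 CPM in control and to 83.9 and 137 CPM in drought, with log2 changes between 0.46 and 0.84. Of the 14 later lignin IDs, 2 rose and 2 fell, from Potri.003G059200 at -1.55 ± 0.15 to Potri.009G095800 at 0.75 ± 0.16 on the log2 scale, with a median of -0.02 over the 14.

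In the apex after 25 days the edgeR test called none of the 9 genes, where 0.136% of all genes fell and 0.0279% rose. DESeq2 called 1 (2.14% of all genes), and 3 had an unadjusted p under 0.05. The share of all genes under that unadjusted threshold was not counted, here or for the introns below, so such counts have no background. PAL1 was at 1173 and 1321 CPM in control and 1224 and 1268 in drought, and the arms overlapped. The 95% interval of its log2 change ran from -0.52 to 0.47. C4H1 was at 196 and 103 CPM against 49.3 and 51.5, with no overlap, but its change of -1.60 ± 0.31 did not pass (adjusted p = 0.153). C4H2 was at 710.5 and 303 CPM against 233 and 171 (-1.36 ± 0.42, adjusted p = 0.308). The other 7 genes had log2 changes between -0.51 and 0.11, none of them called. The 5 xylem markers summed to 45.1 to 66.7 CPM in control and 45.1 to 62.5 in drought apex. Of the 14 later lignin IDs 1 fell, Potri.016G078300 at -1.63 ± 0.21, and their median was -0.24.

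In mature leaves after 24 hours of drought, PAL3 was the single gene called among the 9. Of all genes 9.2% fell and 8.73% rose, so the share called among the 9 was smaller than over all genes. PAL3 went from 487.5 and 443 CPM to 75.1 and 130.1, a 4.42-fold fall (-2.14 ± 0.29, adjusted p = 0.00845), and was not called without control 19 or 49 (-2.10 and -2.22, highest adjusted p = 0.124). PAL1 was at 844 and 616 CPM against 185 and 374, without overlap, but its change of -1.35 ± 0.38 missed the threshold (adjusted p = 0.0632). C4H1 was at 43.9 and 34.6 CPM against 16.99 and 24.7 (-0.88 ± 0.24, adjusted p = 0.0509). The remaining 6 genes had log2 changes between -0.48 and 0.22. Of the leaf markers 1 of 4 fell, and their sum was 55670 to 63750 CPM in control and 28970 to 38550 in drought. All 5 xylem markers fell, from a sum of 199 to 307.5 CPM in control to 97.5 to 105.5 CPM in drought, and their part in the PAL3 result was not tested. Of the 14 later lignin IDs 2 rose and 3 fell, from Potri.003G059200 at -1.16 ± 0.26 to Potri.016G078300 at 2.67 ± 0.58, with a median of -0.10.

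The apex after 24 hours moved in both directions. C4H1, C4H2 and 4CL3 fell and 4CL5 rose, in a tissue where 32.3% of all genes fell and 30% rose, so that 4 called genes of 9 is a smaller share than over all genes. C4H1 went from 139 and 188 CPM to 69.1 and 67.1 (-1.32 ± 0.18, adjusted p = 0.000948). C4H2 went from 251.5 and 264 CPM to 141 and 167 (-0.80 ± 0.16, adjusted p = 0.00454). Both calls held without any single library.

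4CL5 rose from 4.015 and 5.309 CPM to 8.465 and 8.722 (0.83 ± 0.19, adjusted p = 0.00962), and was not called without control 19 (0.64, adjusted p = 0.111). 4CL3 was at 46.4 and 68.7 CPM against 37.0 and 42.9 (-0.58 ± 0.20, adjusted p = 0.0416). The 4CL3 call was lost without control 49, drought 35 or drought 69 (-0.29, -0.48 and -0.69, highest adjusted p = 0.333). When the reads of 4CL3 and 4CL5 were summed, the sum had a change of -0.41 and was not called.

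PAL1 was at 1679 and 769 CPM in control and 2410 and 2042 in drought apex. The drought libraries were above both controls, which lay far apart, and the change of 0.80 ± 0.37 did not pass (adjusted p = 0.105). PAL2 was at 322.5 and 360.5 CPM against 441 and 493 (0.39 ± 0.16, adjusted p = 0.0714). PAL3 overlapped between the arms. Of the 5 xylem markers 3 rose, and their sum was 60.6 to 72.15 CPM in control and 95.6 to 102 CPM in drought. Of the 14 later lignin IDs, 6 rose and 3 fell, from Potri.003G181400 at -2.53 ± 0.35 to Potri.007G016400 at 1.64 ± 0.24, with a median near 0. Other tissue markers moved here too. Of the leaf markers 2 of 4 fell, from a sum of 9676 to 11300 CPM to 1256 to 2613 CPM, and of the meristem markers 1 of 2 fell, from 12.01 to 13.9 CPM to 5.24 to 8.24 CPM. The part of these cell types in the results for apex was not tested.

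**Figure D3:**
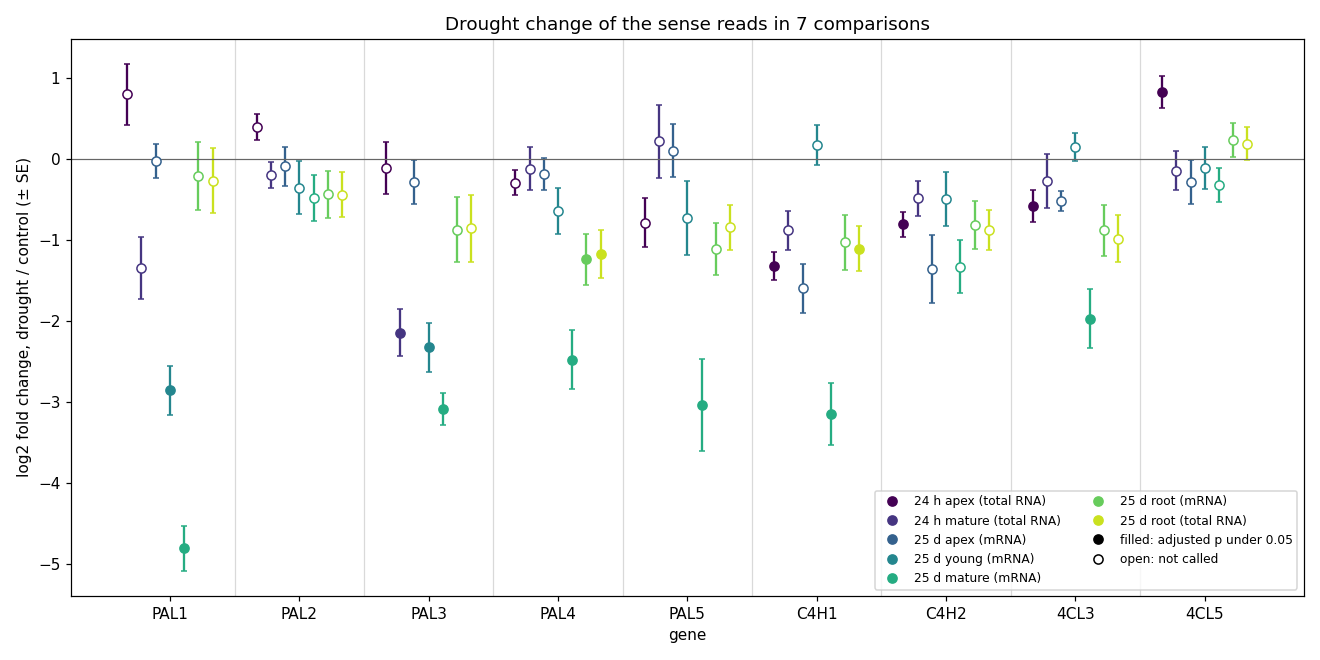
Log2 fold change of drought over control with its SE for each gene in the 7 comparisons; filled points have an adjusted p under 0.05. PAL1 in mature leaves after 25 days is lowest at -4.81, PAL2 has no filled point, and 4CL5 in apex after 24 hours, at 0.83, is the single filled point above 0.

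Reads in introns come mostly from transcripts that are not yet spliced, and the total RNA libraries hold the most of them. In the apex after 24 hours, 7 of the 9 genes had enough intron reads to be tested and 5 were called, 3 down and 2 up. The background was high, with 68.8% of all tested introns called and a median log2 change of 0.86 over all of them. Drought changes of intron and antisense reads were scaled by the sense reads of each library. PAL1 and PAL3 went against that shift. PAL1 had 504 and 174 intron reads in control and 40 and 35 in drought, a log2 change of -2.77 ± 0.28 (adjusted p = 3.21e-17). PAL3 had 336 and 106 against 28 and 39 (-2.32 ± 0.29, adjusted p = 6.41e-12).

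PAL2 rose in the same introns, from 128 and 56 reads to 209 and 229 (1.61 ± 0.25, adjusted p = 4.42e-09). C4H1 had 66 and 52 reads against 15 and 24 (-1.30 ± 0.38, adjusted p = 0.00168), and was not called without control 49 (-1.175, adjusted p = 0.0603). 4CL3 had 71 and 64 reads against 91 and 101 (0.79 ± 0.28, adjusted p = 0.0092). With the libraries scaled by their own intron totals, the 4CL3 change became -0.06 and was not called, and it was also not called without control 19 (0.55, adjusted p = 0.241) or by DESeq2 (adjusted p = 0.0592). On that scaling the PAL2 call held, and C4H2 was called at -0.77.

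Set against sense reads of the same gene, PAL1 had the lowest intron change of the 7. There were 0.438 and 0.516 intron reads per 100 sense reads of PAL1 in control apex and 0.04025 and 0.03794 in drought apex. The difference between the intron change and the sense change, a test added after the values were seen, was -3.59 ± 0.29 for PAL1 (adjusted p = 1.3e-07) and -2.19 ± 0.27 for PAL3 (adjusted p = 5.71e-06). PAL3 went from 1.15 and 1.11 intron reads per 100 sense reads to 0.234 and 0.258.

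Both calls held without any single library and when libraries were scaled by their own intron totals. The difference was above 0 for 4CL3 (1.35 ± 0.24), PAL2 (1.22 ± 0.27), C4H2 (0.88 ± 0.25) and PAL4 (0.63 ± 0.24, but -0.23 with own intron totals), so 6 of 7 tested genes were called, against 52.4% of all genes. The median over all genes was 0.74. With own intron totals 4CL3, PAL2, C4H2 and PAL4 lost their calls (0.49, 0.34, 0.02 and -0.23) and 3 genes were called, PAL1, PAL3 and C4H1, against 23.2% of all genes. C4H1 had a difference of 0.00 on the first scaling and -0.86 on the second. The PAL2 ratio was not called without control 49 (0.91, adjusted p = 0.0656), the C4H2 ratio without control 49 or drought 69 (0.78 and 0.61, highest adjusted p = 0.0956), and the PAL4 ratio without control 19 or 49 or drought 35 (0.75, 0.54 and 0.46, highest adjusted p = 0.24).

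Mature leaves after 24 hours showed the same pair. Introns of 6 genes were tested, and PAL1 and PAL3 were called, where 11.9% of all tested introns were. PAL1 had 168 and 142 intron reads in control and 8 in each drought library (-4.50 ± 0.40, adjusted p = 2.57e-12). PAL3 had 117 and 104 against 7 and 19 (-3.30 ± 0.40, adjusted p = 5.48e-08). Both calls held whichever library was left out.

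Relative to sense reads, PAL1 was the single member called in mature leaves, at -3.09 ± 0.44 (adjusted p = 0.00258), where 0.268% of all genes were. It went from 0.798 and 0.7815 to 0.125 and 0.0696 intron reads per 100 sense reads. This call was lost without drought 69 (-2.63, adjusted p = 0.323). PAL2 had 54 and 50 intron reads against 86 and 73, a change of 0.37 ± 0.32 that did not pass.

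**Figure D4:**
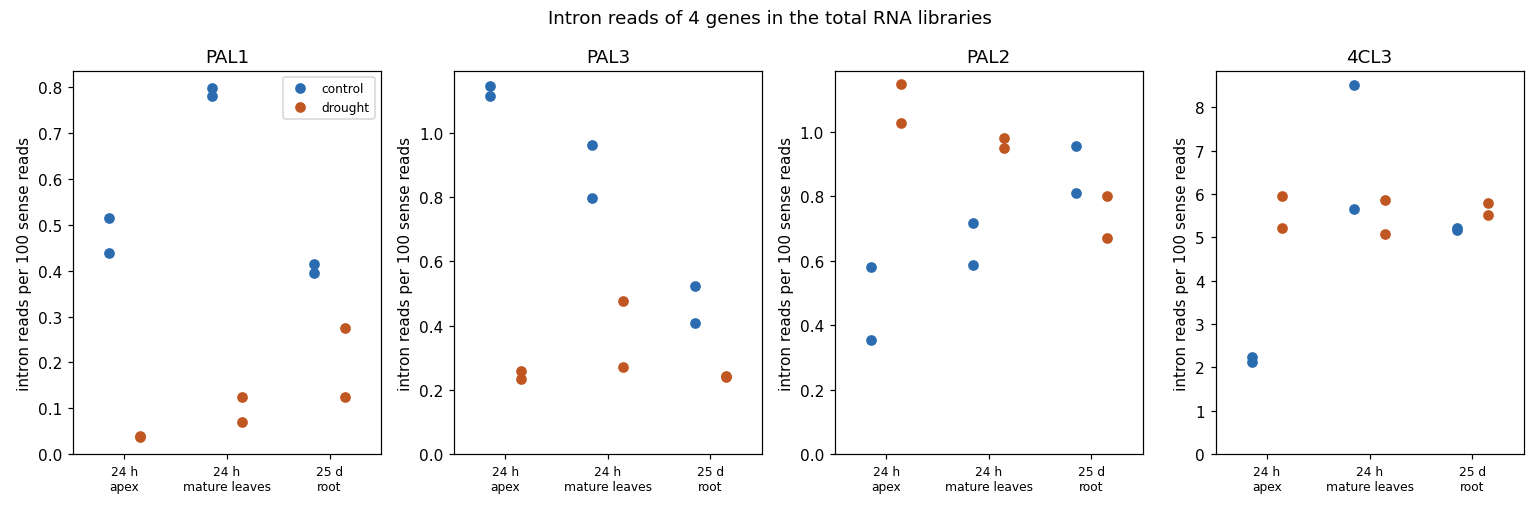
Intron reads per 100 sense reads of PAL1, PAL3, PAL2 and 4CL3 in the 12 total RNA libraries, by tissue and term; points are libraries, blue control and orange drought. PAL1 drops from 0.438 and 0.516 to 0.04025 and 0.03794 in apex after 24 hours, while PAL2 goes from 0.58 and 0.354 to 1.15 and 1.03.

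Intron reads of the long mRNA libraries were few. In young leaves PAL1 had 40 reads in each control library and 9 and 7 in drought, the single call of 2 genes tested (-2.12 ± 0.42, adjusted p = 0.0381), where 1.32% of all introns were called. It was lost without drought 68 (-1.78, adjusted p = 0.231) and by DESeq2 (adjusted p = 0.125). In apex after 25 days edgeR and DESeq2 each called none of 3 genes (0.104% of all introns called by edgeR), and 1 had an unadjusted p under 0.05. In mature leaves no member had enough intron reads to be tested.

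In root after 25 days 1 gene fell in mRNA and 2 in total RNA. PAL4 went from 88.0 and 102 CPM to 53.8 and 29.7 in mRNA (-1.24 ± 0.32, adjusted p = 0.0449), where 14.7% of all genes fell and 12.7% rose. In total RNA PAL4 went from 307 and 369 CPM to 199 and 117 (-1.17 ± 0.30, adjusted p = 0.0459) and C4H1 from 242 and 322 to 168 and 108 (-1.10 ± 0.28, adjusted p = 0.0461), where 14.3% of all genes fell and 12.1% rose. These 2 sets share title numbers and are 2 kinds of library of the same tissue, so they are not independent of each other.

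The root calls rested on few libraries. PAL4 in mRNA was lost without control 63 or 70 (-1.36 and -1.11, highest adjusted p = 0.182). In total RNA PAL4 was lost without control 63 or 70 or drought 68 (-1.31, -1.01 and -0.83, highest adjusted p = 0.192), as was C4H1 (-1.30, -0.87 and -0.81, highest adjusted p = 0.19). Drought library 64 was nearer to the controls than 68 for all 9 genes but 4CL5. Without it 6 of the 9 genes were called in each kind of library, where 31.5% of all genes were called in mRNA and 24.9% in total RNA. DESeq2 called 5 in each, against 31.7% of all genes in mRNA and 30.7% in total RNA.

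PAL1 overlapped between the arms in both kinds of root library, at 618 and 377 CPM against 596 and 291.5 in mRNA. 4CL5 did as well, at 22.9 and 18.9 CPM against 29.6 and 21.5. The remaining genes that were not called had log2 changes between -1.11 and -0.44 in mRNA (6 genes) and between -0.98 and -0.44 in total RNA (5 genes). The median log2 change of the 9 genes was -0.87 in mRNA and -0.86 in total RNA, against -0.03 over all genes in each. Of the 5 xylem markers 4 fell in each kind, from a sum of 410 to 768 CPM to 161 to 207 CPM in mRNA, and 1 of 2 meristem markers fell in each, from a sum of 91.85 to 92.7 CPM to 51.3 to 54.3 CPM in mRNA. The part of these cells in the result was not tested. Of the 14 later lignin IDs 4 fell in each kind, with medians of -0.48 in mRNA and -0.61 in total RNA. In mRNA the called ones ran from Potri.008G136600 at -1.41 ± 0.30 to Potri.003G181400 at -0.67 ± 0.16, and in total RNA from Potri.012G006400 at -1.36 ± 0.33 to Potri.001G175000 at -0.55 ± 0.13.

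Of the root introns, few passed. In total RNA PAL3 was the single gene of 9 called, at 199 and 91 intron reads in control and 57 and 23 in drought (-1.82 ± 0.46, adjusted p = 0.0402), where 19.5% of all introns were called. It was lost without control 63 (-1.21, adjusted p = 0.0582), while without drought 64 the count was 7, where 22.3% of all introns were called. Relative to sense reads PAL3 was also the single call, at -0.97 ± 0.24 (adjusted p = 0.0221) against 1.82% of all genes, and was lost without control 63, drought 64 or drought 68 (-0.77, -0.95 and -0.98, highest adjusted p = 0.236). In root mRNA edgeR and DESeq2 each called none of the 8 genes tested on introns, 4 had an unadjusted p under 0.05, and 15.7% of all introns were called by edgeR; without drought 64 edgeR called 6, and 30.7% of all introns.

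The level of some genes in root depended on the kind of library. In the well-watered root libraries PAL2 was at 616 and 534 CPM in total RNA and 231 and 194 in mRNA, a log2 difference of 1.45 ± 0.13 (adjusted p = 0.0027). PAL4 was at 307 and 369 CPM against 88.0 and 102, a difference of 1.84 ± 0.14 (adjusted p = 0.00201). Both held without any single library, and the groups did not overlap.

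In total 4 of the 9 genes were called, all higher in total RNA, where 40.2% of all genes differed. The other 2 were 4CL3 at 0.44 ± 0.06 and C4H2 at 0.35 ± 0.06. The 4CL3 call was lost without mRNA library 63 or 70 or total RNA library 63 (0.42 to 0.45, highest adjusted p = 0.0704), and that of C4H2 without any of the 4 (0.30 to 0.38, highest adjusted p = 0.119). PAL1 and PAL3, at -0.24 ± 0.34 and 0.29 ± 0.35, did not pass. These tests treated the libraries as unpaired. Both kinds of library share title numbers, though the labels do not say that the numbers pair libraries. Deviations of same-numbered root libraries correlated at 0.881 in control and 0.897 in drought. With the title number as a replicate block more of the 9 genes were called, as counted in the closing section. PAL4 reads were 15.6% and 23.7% of PAL reads in total RNA and 6.38% and 10.7% in mRNA. The test of a difference in drought change between the kinds of library called 0 of the 9 genes by edgeR and 0 by DESeq2, 0 had an unadjusted p under 0.05, and edgeR called 0% of all genes.

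**Figure D5:**
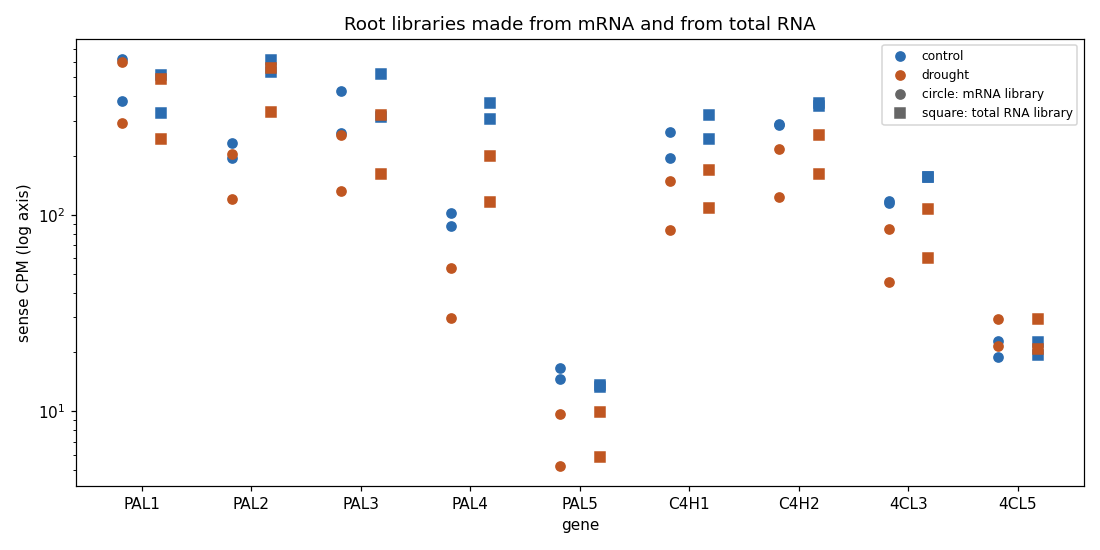
Sense level in CPM (log axis) of each gene in the 8 root libraries; circles are mRNA and squares total RNA libraries, blue control and orange drought. PAL2 and PAL4 stand higher in total RNA (616 and 534, and 307 and 369 CPM in control) than in mRNA, while 4CL5 does not.

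Tested directly, the drought change of PAL1 depended on tissue. In the long experiment it was higher in root than in mature leaves by 4.61 ± 0.57 on the log2 scale (adjusted p = 0.00869), which held without each of the 8 libraries in turn (lowest 4.001, highest adjusted p = 0.0469). PAL1 and PAL3 were the 2 genes called there (7.44% of all genes). The other long contrasts called PAL1 in root against young leaves (6.38% of all genes), PAL1 and PAL3 in apex against young leaves (4.61%), and PAL1 and C4H1 in young against mature leaves (1.71%). The C4H1 change was 3.38 ± 0.53 higher in young than in mature leaves (adjusted p = 0.0302).

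In the short experiment PAL1, PAL3 and 4CL5 had a higher drought change in apex than in mature leaves (28.3% of all genes differed). Between the terms, PAL1 had a lower change in mature leaves after 25 days than after 24 hours, by -3.42 ± 0.51 (adjusted p = 0.0129; 4.26% of all genes). 4CL5 had a lower change in apex after 25 days, by -1.12 ± 0.34 (adjusted p = 0.0229; 48.2% of all genes). Term and kind of library changed together in these contrasts and cannot be told apart. Several contrasts share libraries, and most of the calls were lost when some library was left out, as given with each value in the closing section.

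Antisense reads over the 9 genes were few, at most 16 in any library for every gene but PAL4. PAL4 had 4 and 3 antisense reads in control apex and 31 and 109 after 24 hours of drought. That is a rise of 4.55 ± 0.67 on the log2 scale (adjusted p = 0.00027), where 47.2% of all antisense genes tested were called and their median change was 0.63, and it held without any single library. PAL4 sense reads in those libraries were at 100.5 and 90.9 CPM against 73.9 and 89.3 and did not pass (-0.29 ± 0.15, adjusted p = 0.137).

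In mature leaves of the short experiment PAL4 had 0 antisense reads in each control and 5 and 15 in drought, too few for the test. C4H2 had 11 and 10 antisense reads in control and 2 and 0 in drought mature leaves (-3.47 ± 0.90, adjusted p = 0.0418), where 14.1% of all antisense genes were called. The C4H2 call was lost by DESeq2 (adjusted p = 0.106) and with no filter on low counts (-3.48, adjusted p = 0.0546). It was also lost without drought 69 (-2.64). With any other library left out the antisense reads of C4H2 were too few for the test. In apex C4H2 had 16 and 12 against 6 and 1 (-1.65 ± 0.73, adjusted p = 0.077). No antisense count of the 9 genes in the long experiment was high enough to be tested.

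Over the 28 libraries PAL1 and PAL3 were each other's closest gene, with a Pearson r of 0.874 of log2(CPM + 1) among 16982 genes compared. C4H1 went with 4CL3 (r = 0.899) and C4H2 (r = 0.869), PAL4 with 4CL3 (r = 0.863) and PAL2 (r = 0.838), and PAL1 against 4CL5 had an r of -0.18. These coefficients describe libraries that share tissues and kind of library, and are given without a test. The gene closest to the mean profile of the 9 was Potri.T002600 (r = 0.886), with Potri.002G079200 next (r = 0.884). The other 3 of the 5 closest were Potri.018G063500, Potri.001G420200 and Potri.006G136700, each with an r of 0.884. The last was also the closest to C4H1 alone (r = 0.949). The closest gene was Potri.014G090100 for PAL2 (r = 0.915), Potri.003G199600 for PAL4 (r = 0.923) and Potri.008G201600 for PAL5 (r = 0.933). It was Potri.004G213500 for C4H2 (r = 0.874), Potri.017G016700 for 4CL3 (r = 0.919) and Potri.008G178000 for 4CL5 (r = 0.968). The files name none of these genes.

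Across the 8 group means of the long mRNA libraries the range within a gene was 179.9-fold for PAL1, 72.3-fold for PAL3, 25.5-fold for PAL5, 21.5-fold for C4H1 and 13.03-fold for PAL4. It was 8.27-fold for C4H2, 7.33-fold for 4CL5, 6.72-fold for 4CL3 and 1.76-fold for PAL2. The lowest of these groups was drought mature leaves for every gene but 4CL5, whose lowest was drought young leaves.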

How the data were processed

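Strand-specific RNA-seq of Populus trichocarpa was deposited as 4 count files per library: sense and antisense counts per gene, and the same for reads in introns, listed under gene IDs (33330 entries). Per the labels' protocols, RNA was extracted with CTAB, treated with DNase I and made into stranded libraries, after Ribo-Zero depletion for total RNA. Tools named, without a role, in the submitters' processing notes are HTSeq 0.6.0, DESeq2 and TopHat2 2.1.0. The genome build and annotation are not given in the sources used here. Root files carry the word "merged" in their names, and what was merged is not stated. The values are raw counts as the authors deposited them, and 0 columns of per-sample values were left unused. Closing lines that name no gene, present in 44 of 56 gene files, were left out of totals and tests. The 109 intron entries that join several genes were kept as entries of their own.

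Counts were tested with edgeR 4.0.16 (R 4.3.3, limma 3.58.1) by the quasi-likelihood test, with TMM scaling, genes kept by filterByExpr (minimum count 10, total 15), 1 fit per comparison and Benjamini-Hochberg adjustment over all genes. Intron and antisense fits used the library sizes of the sense counts. Differences in drought change were interaction terms. Well-watered tissues of the long mRNA libraries were compared in 1 fit over all their control groups. The short tissues, and the kinds of root library, were compared in separate fits of the control groups compared. Alternatives were DESeq2 1.42.0, no filter, other scalings, a shared dispersion, copies summed, a block on title number and each library left out. The intron-minus-sense test was added after the values were seen. All sense drought fits were tested on simulated data with a fixed dispersion. Of the antisense, intron, interaction, well-watered and intron-minus-sense fits, 1 of each kind was tested so. The simulated antisense and intron fits used sense totals without TMM scaling. Replicates were distinct libraries, with a chi-square per degree of freedom of 24.9 to 111 and a log2 correlation of 0.971 to 0.987. An SE is the size of the log2 change over the root of its F value, and a 95% interval is that SE times the t quantile of the test's degrees of freedom.

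The 9 genes, the lists and the tests were chosen with earlier results of these data known. The rule names all 9 genes, and those not singled out in a comparison are given by count and range. The genes of like profile are those with the highest Pearson r of log2(CPM + 1) among genes with a mean of at least 5 CPM. Of the later lignin list the highest and lowest called fold are named. The reference table at hand matched 0 of the 41335 IDs, so no sequences, lengths or positions are given.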

Additional observations from a re-analysis of the deposited data

Results flagged for a closer look

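In 12 cases the drought change of a gene differed between tissues or terms by an interaction test (edgeR, adjusted over all genes). All values are differences in log2 change. In root against mature leaves after 25 days, PAL1 differed by 4.61 ± 0.57 (adjusted p = 0.00869), the 1 call of the 12 kept without each of the 8 libraries. PAL3 differed there by 2.23 ± 0.50 (adjusted p = 0.0413), lost in 7 of 8 cases (1.66 to 2.63, highest adjusted p = 0.126), that is without any library but root drought 68.

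In apex against young leaves after 25 days, PAL1 differed by 2.84 ± 0.34 (adjusted p = 0.0069), lost without apex control 63 (2.76, adjusted p = 0.0517). PAL3 differed by 2.05 ± 0.44 (adjusted p = 0.0321), lost in 6 of 8 cases (highest adjusted p = 0.0895) and kept without apex drought 68 or young leaf drought 64. In root against young leaves PAL1 differed by 2.68 ± 0.52 (adjusted p = 0.0236), lost without root control 70 or any young leaf library (highest adjusted p = 0.108).

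In young against mature leaves after 25 days, PAL1 differed by 2.01 ± 0.35 (adjusted p = 0.0288), lost without any library but mature control 70 (highest adjusted p = 0.137). C4H1 differed by 3.38 ± 0.53 (adjusted p = 0.0302), lost without either mature drought library, either young control library or young drought 64 (highest adjusted p = 0.145).

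In apex against mature leaves after 24 hours, PAL3 differed by 2.02 ± 0.50 (adjusted p = 0.0211), lost without apex drought 69 or mature control 19 (highest adjusted p = 0.0675). PAL1 differed by 2.13 ± 0.63 (adjusted p = 0.0414), lost in 6 of 8 cases (highest adjusted p = 0.116) and kept without apex control 19 or mature drought 69. 4CL5 differed by 0.95 ± 0.29 (adjusted p = 0.0381), lost without any library but mature drought 69 (highest adjusted p = 0.169).

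Between the terms, PAL1 in mature leaves had a lower change after 25 days than after 24 hours, by -3.42 ± 0.51 (adjusted p = 0.0129), lost without long drought 68 or either short control (highest adjusted p = 0.0746). 4CL5 in apex did so by -1.12 ± 0.34 (adjusted p = 0.0229), lost without long control 63, long drought 64 or short control 19 (highest adjusted p = 0.111). Term and kind of library cannot be told apart in both.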

How the results depend on the processing

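For 16 called sense changes there were 128 alternative values, of which 101 kept the call, 26 lost it and 1 had the opposite sign. Among these values the sum of a pair of copies stands under each of its genes. For 9 intron calls these were 56, 6 and 1 of 63. For 8 intron-minus-sense calls they were 26, 13 and 1 of 40. For 12 interaction calls 76 of 130 held and 54 did not, for 37 well-watered calls 234 of 259 held and 25 did not, and for 2 antisense calls 8 of 11 held and 3 did not. Only 2 libraries per group limit every result, and for introns and antisense reads so does the low number of reads. The cause of each change below was not tested, apart from summed copies, where the sum follows the larger copy. Counts of called genes below are given without the share of all genes called in the same fit. They show only how a count moved with the processing.

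With libraries scaled by their own intron totals, apex after 24 hours gave intron changes of -0.0636 for 4CL3, -0.77 for C4H2 and -0.52 for PAL4, and intron-minus-sense differences of -0.86 for C4H1 and -0.23 for PAL4. PAL4 introns in mature leaves after 24 hours gave 0.0487. Calls by own totals numbered 3 for introns in root mRNA, 2 for intron minus sense in root total RNA, 3 for that in apex after 24 hours and 2 for antisense there.

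With copies summed, the 4CL sum changed by -0.64 in root mRNA, -0.78 in root total RNA, 0.13 in young leaves and -0.41 in apex after 24 hours, opposite to 4CL5. The C4H sum changed by -0.36 in young leaves, opposite to C4H1. The sum of PAL1 and PAL3 changed by 0.65 in apex after 24 hours, opposite to PAL3. The sum of PAL4 and PAL5 changed by -0.15 in apex after 25 days and -0.10 in mature leaves after 24 hours, opposite to PAL5. Each sum was entered under both of its genes, so a called sum counts 2 times in the next counts. Calls then numbered 2 in root mRNA, 4 in root total RNA, 2 in apex after 24 hours and 2 in mature leaves after 24 hours. They are not counts of separate genes.

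DESeq2 called 5 genes in root mRNA, 5 in root total RNA, 3 in mature leaves after 24 hours and 1 in apex after 25 days. It called 4 on introns of root total RNA, 0 on introns of young leaves and 0 on antisense reads of mature leaves after 24 hours. Its interaction counts were 4 for root against mature leaves, 2 for root against young leaves, 4 for young against mature leaves and 5 for mature leaves between terms. Without a filter on low counts, calls numbered 0 in root total RNA and 2 in mature leaves after 24 hours, 2 on introns of root mRNA and 6 on introns of root total RNA. They numbered 2 for mature leaves between terms and 1 for apex against mature leaves after 24 hours. With a shared dispersion, calls numbered 1 in root total RNA and 2 in mature leaves after 24 hours.

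Title numbers recur across tissues, with only 2 per comparison, and the labels do not say that they pair libraries. Deviations of same-numbered libraries correlated at -0.0378 to 0.538 between tissues and at 0.881 and 0.897 between the kinds of root library. With the title number as a replicate block, calls numbered 4 for the interaction of root against young leaves and 6 for young against mature leaves. For well-watered levels they numbered 8 between the kinds of root library and 7 between apex and mature leaves of the short experiment.

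Leaving out each library in turn gave these ranges of called genes. For sense changes they were 3 to 7 in mature leaves, 2 to 4 in young leaves, 0 to 2 in apex and 0 to 6 in each kind of root library after 25 days, and 0 to 5 in mature leaves after 24 hours. For introns they were 0 to 6 in mRNA and 0 to 7 in total RNA of root, and 0 to 1 in apex, young leaves and mature leaves after 25 days. For intron minus sense they were 3 to 5 in apex and 0 to 2 in mature leaves after 24 hours, and 0 to 1 in root total RNA. For antisense they were 1 to 2 in apex and 0 in mature leaves after 24 hours. For interactions they were 0 to 3 for apex against mature leaves, 0 to 3 for young against mature leaves, 1 to 2 for root against mature leaves, 0 to 2 for root against young leaves, 0 to 2 for apex against young leaves, 0 to 5 for mature leaves between terms and 0 to 2 for apex between terms. For well-watered levels they were 1 to 3 for apex against young leaves, 2 to 6 for young against mature leaves and 2 to 3 between the kinds of root library.

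The following changes that did not pass took either sign when a library was left out. In young leaves they ran from -0.0623 to 0.36 for 4CL3, -0.29 to 0.12 for 4CL5, -0.23 to 0.50 for C4H1, -0.86 to 0.0161 for C4H2 and -0.80 to 0.00929 for PAL2. In apex after 25 days they ran from -0.57 to 0.0735 for 4CL5, -0.0886 to 0.0463 for PAL1, -0.40 to 0.17 for PAL2, -0.60 to 0.12 for PAL3, -0.52 to 0.0941 for PAL4 and -0.47 to 0.51 for PAL5. In mature leaves after 24 hours they ran from -0.85 to 0.16 for 4CL3 (called without drought 69, adjusted p = 0.0113), -0.54 to 0.22 for PAL4 and -0.22 to 0.81 for PAL5. PAL3 in apex after 24 hours ran from -0.53 to 0.47. In root PAL1 ran from -0.78 to 0.22 with mRNA and from -0.84 to 0.16 with total RNA, and 4CL5 from -0.0641 to 0.43 in root total RNA. Between the kinds of root library, 4CL5 ran from -0.13 to 0.16, PAL1 from -0.61 to 0.17 and PAL3 from -0.13 to 0.69. Introns of C4H2 ran from -0.31 to 0.42 in apex and -0.51 to 0.19 in mature leaves after 24 hours, and those of PAL4 from -0.55 to 0.30 in the latter. Intron minus sense ran from -0.32 to 0.26 for C4H1 in apex, and in mature leaves from -0.0649 to 0.81 for C4H2 and -0.17 to 0.30 for PAL4.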
